A study of Mus musculus with 18 samples.

Results

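Ribosome footprint libraries labelled with the Mtor variant C1483Y were compared with footprint libraries labelled wild type (WT). The comparison holds 6 of the 18 libraries of the series, 3 labelled C1483Y and 3 labelled WT, and they were chosen by their labels. The C1483Y group is NIH3T3 carrying the change Mtor c.G4448A, introduced by CRISPR, and it received vehicle. The WT group is unedited NIH3T3, also given vehicle, and all cells were grown in DMEM with serum. A further 3 footprint libraries come from WT cells given the mTOR kinase inhibitor Torin1 at 200 nM for 3 h, and they enter the statistical model as a further group. The same 3 groups were also sequenced as fragmented mRNA, with 3 libraries per group. The labels name one edited line and do not say whether replicates were separate cultures, so p-values measure the spread between libraries, which may be technical.

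NIH3T3 is an immortal line of mouse embryo fibroblasts, cells that make and remodel the extracellular matrix and are marked by fibrillar collagens, fibronectin and Sparc. The line is known to have lost the Cdkn2a locus, which encodes the cell cycle inhibitors p16INK4a and p19ARF. Ribosome profiling sequences the short stretches of mRNA that ribosomes shield from nuclease, so a gene's footprint count depends on both its mRNA level and how heavily that mRNA is translated. mTOR is the kinase of the complexes mTORC1 and mTORC2, which couple nutrient and growth factor signals to translation and growth.

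The fibroblast label did not hold in the C1483Y footprints: matrix genes were largely missing from them, while genes of several other lineages and Cdkn2a itself were read. The differences below are therefore those between libraries carrying 2 labels and are not assigned to the Mtor edit. The deposited tables give counts per mouse gene and no read sequences, so the species of a read could not be examined, and a difference in cell identity and one in read identity cannot be told apart. Fewer cells of a type and less RNA per cell cannot be told apart either.

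The C1483Y footprint libraries held 4133742, 4673800 and 4384609 gene reads, against 12029438, 42803232 and 12876022 in WT. Reads that fell outside annotated genes made up 23.6%, 27.1% and 20.1% of gene plus outside reads in C1483Y and 4.71%, 6.87% and 6.26% in WT. C1483Y replicate 2 stood apart from its group: it correlated at 0.7 and 0.65 with the other C1483Y libraries, which correlated at 0.85 with each other (Pearson, across 9743 genes, log2(CPM + 1), a description). It had 0 reads on 1517 and 1698 genes that the other C1483Y libraries held at 10 CPM (counts per 1000000 reads) or more, whereas those other libraries lacked only 102 and 181 of each other's. WT replicate 3 likewise lacked 128 and 167 genes that other WT libraries held at that level, against 0 and 1 between WT replicates 1 and 2. A zero in one of these libraries is therefore weaker evidence of absence than its depth alone would make it. Values are accordingly given for every library.

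Across all genes, 2074 of 11133 tested genes (18.6%) differed between C1483Y and WT footprints at an adjusted p under 0.05 (edgeR quasi-likelihood test with Benjamini-Hochberg adjustment). Of these, 902 were higher in C1483Y (8.1% of those tested) and 1172 were lower (10.5%). Of the 902 higher genes 150 had no read in any WT library, and of the 1172 lower genes 118 had no read in any C1483Y library. The CPM of all C1483Y libraries lay above all WT libraries in 1867 genes (16.8%) and below them in 3005 (27.0%). The median log2 fold change over all genes tested was -0.24. C1483Y libraries correlated with WT libraries at 0.39 to 0.49, whereas Torin1 libraries correlated with WT at 0.73 to 0.96. The number of calls depended on single libraries. It was 1239, 1156 and 1309 without WT replicates 1, 2 and 3, and 3174 without C1483Y replicate 2. With DESeq2 it was 3316.

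Genes that were switched on in one group and unread in the other ran in both directions. With a mean of at least 10 CPM in one group and 0 reads in the other, 297 genes were read only in C1483Y and 100 only in WT. When reads were also required in every library of the group that was on, the counts were 170 and 94. When up to 10 reads were allowed in the group that was off, they were 494 and 442. Both of these alternatives were added after seeing the data. The C1483Y libraries were shallower, so a zero in WT sets a lower limit than a zero in C1483Y. Over all 14658 genes with any read, 1762 (12.0%) had reads only in C1483Y and 1842 (12.6%) only in WT.

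The marker genes lay apart in the groups. Since Cdkn2a reads led to this comparison and all 6 markers were chosen with their values known, the marker values are a description and carry no test. Cdkn2a had 1447, 467 and 798 reads in C1483Y, against 4, 0 and 0 in WT. All C1483Y libraries carried it and the WT libraries were at or near 0, and the groups did not overlap (log2 fold change 11.3 ± 1.45 SE). Irs4, an adaptor that docks to the insulin and IGF1 receptors, had 1485, 702 and 1619 reads in C1483Y and 2, 2 and 8 in WT (log2 fold change 10.27 ± 1.32). Again every C1483Y library lay far above every WT library. Uchl1, a ubiquitin hydrolase abundant in neurons, had 1497, 1957 and 2339 reads in C1483Y and 1, 0 and 0 in WT. That is a ratio of 30600 with a counting interval of 5490 to 1210000 (95% exact, counting error only), and the groups did not overlap. Ckb, the brain-type creatine kinase that buffers ATP, had 10990, 13976 and 11867 reads in C1483Y and 9, 92 and 186 in WT. In CPM this was 3010 ± 157 in C1483Y and 5.99 ± 7.77 in WT (SD, n = 3 each), with a log2 fold change of 8.99 ± 1.58.

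The 2 fibroblast markers went the other way. Col1a1, the main chain of type I collagen, had 18.9, 128 and 150 CPM in C1483Y, against 2890, 6050 and 5370 CPM in WT. The lowest WT library was well above the highest C1483Y library (log2 fold change -5.59 ± 0.69). Sparc, a collagen-binding matrix glycoprotein, had 8.39, 19.6 and 35.5 CPM in C1483Y and 784, 1100 and 1260 CPM in WT (log2 fold change -5.63 ± 0.5). Neither gene was at 0 in C1483Y, where Col1a1 still had 72, 562 and 602 reads. In Torin1 footprints Col1a1 had 1360, 1880 and 2310 CPM and Sparc 547, 564 and 613 CPM. Torin1 replicate 3, with 27077812 gene reads, also had 119 Uchl1 reads, 68 Irs4 reads and 319 Ckb reads. At that depth its Ckb level lay within the WT range.

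**Figure D1:**
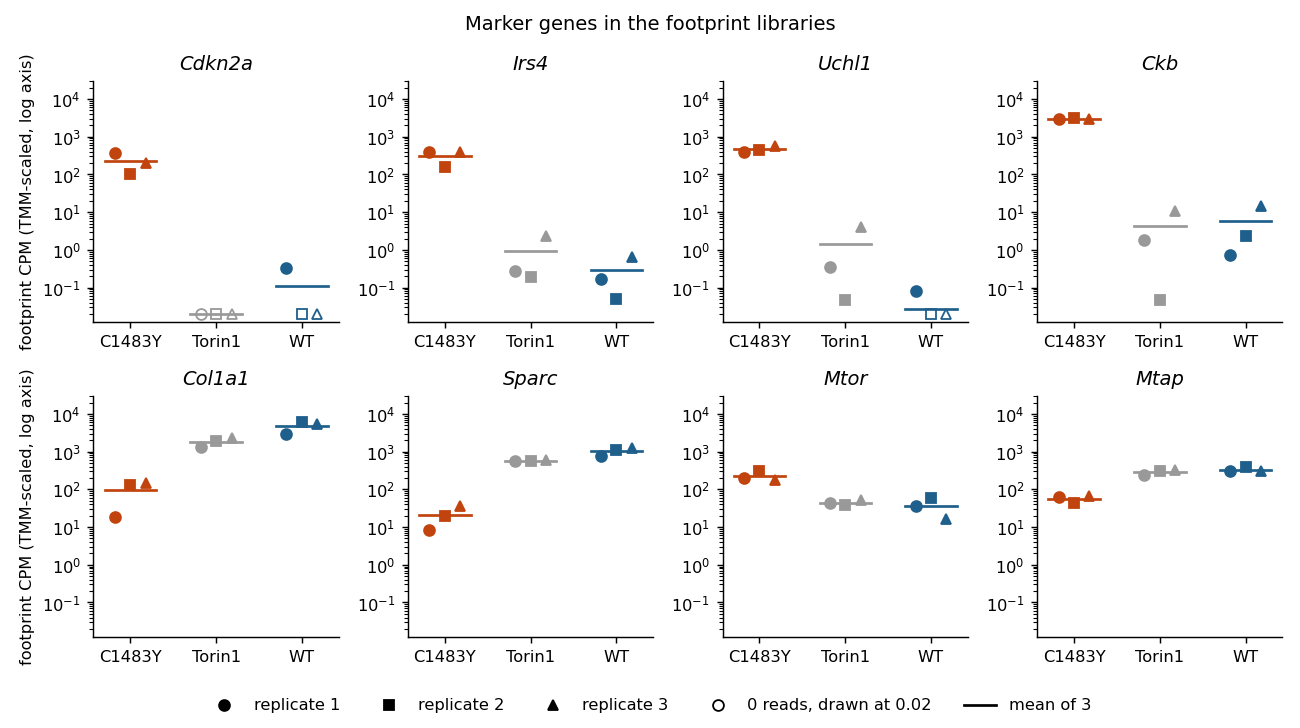
Footprint levels of 8 genes in each library, in TMM-scaled CPM on a log axis, with one symbol per replicate, open symbols for 0 reads and bars for the mean of 3 libraries in C1483Y, Torin1 and WT. Cdkn2a, Irs4, Uchl1 and Ckb sit at 106 CPM or more in every C1483Y library and at 14.9 CPM or less in every WT library, whereas Col1a1 and Sparc show the opposite order.

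Fibroblast and matrix genes fell nearly as a block. Of 57 listed genes 55 were in the files and 49 passed the filter on low counts, of which 42 were lower in C1483Y, none was higher and 7 were not called. The 42 lower genes include the markers Col1a1 and Sparc, which were chosen with their values known. The shares called among all genes were 10.5% lower and 8.1% higher. The median log2 fold change of the 49 genes was -4.47, against -0.24 for all genes tested. All 11 collagen genes, the marker Col1a1 among them, fell, with log2 fold changes between -6.32 for Col5a2 and -3.08 for Col6a3. Col1a2, the partner chain of Col1a1, had 45.1, 171 and 202 CPM in C1483Y and 3670, 6290 and 5880 CPM in WT (log2 fold change -5.25 ± 0.53, edgeR adjusted p = 0.00017). Fn1, fibronectin, had 148, 388 and 439 CPM in C1483Y and 4880, 8050 and 5670 CPM in WT (log2 fold change -4.25 ± 0.43, adjusted p = 0.00017). In Col1a2 and Fn1 C1483Y replicate 1 was the lowest library and no C1483Y library reached a WT level.

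The proteins that organise and crosslink the matrix behaved alike. Bgn, the proteoglycan biglycan, had 12.6, 178 and 230 CPM in C1483Y and 4030, 5740 and 5390 CPM in WT. Fbln2, an elastic fibre component, had 27, 177 and 219 CPM in C1483Y and 3590, 6300 and 3200 CPM in WT. Both fell, with log2 fold changes of -5.17 ± 0.79 for Bgn and -4.95 ± 0.65 for Fbln2 (edgeR adjusted p = 0.00129 and 0.000558). Lox, which crosslinks collagen, had a log2 fold change of -4.95 ± 0.46 (adjusted p = 0.000107). Thbs1, a thrombospondin, had one of -4.02 ± 0.65 (adjusted p = 0.00177). Tagln, an actin-binding protein of smooth muscle and activated fibroblasts, had 11, 3 and 5 reads in C1483Y and 928, 10868 and 1672 in WT (log2 fold change -6.65 ± 1.06, adjusted p = 0.00156).

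Surface and cytoskeletal markers of fibroblasts followed. Cd44, the hyaluronan receptor, had 21, 1 and 127 reads in C1483Y, against 9213, 31715 and 9248 in WT. Thy1, a surface glycoprotein of fibroblasts, had 8, 1 and 67 reads in C1483Y and 3201, 9560 and 3066 in WT. Both fell (log2 fold changes -5.94 ± 1.04 and -5.3 ± 1.02, edgeR adjusted p = 0.00265 and 0.00453), and C1483Y replicate 2 had a single read on each. Pdgfrb, a receptor for platelet-derived growth factor, had 8, 1 and 15 reads in C1483Y and 2060, 6487 and 2734 in WT (log2 fold change -6.52 ± 0.71, adjusted p = 0.000209). Pdgfra, its sister receptor, had 29, 0 and 197 reads in C1483Y and 2560, 9074 and 3449 in WT (log2 fold change -3.66 ± 1.12, adjusted p = 0.042). All 4 receptors and antigens were lower in each C1483Y library than in any WT library. S100a4, a calcium-binding protein of fibroblasts, had a log2 fold change of -5.13 ± 0.6 and Prrx1, a mesenchymal transcription factor, one of -3.34 ± 0.73 (adjusted p = 0.000285 and 0.00902). Vim, the intermediate filament of mesenchymal cells, fell less, with 2110, 2760 and 2920 CPM in C1483Y and 9940, 11100 and 8190 CPM in WT (log2 fold change -1.91 ± 0.21, adjusted p = 0.000202). Even the lowest C1483Y library thus kept 2110 CPM of Vim.

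Among proteases and their inhibitors, Mmp14, a membrane-bound collagenase, had 9.7, 7.29 and 12.2 CPM in C1483Y and 429, 526 and 351 CPM in WT (log2 fold change -5.48 ± 0.37, edgeR adjusted p = 3.92e-05). No C1483Y library came near the WT range. Mmp2, a gelatinase, fell as well (log2 fold change -3.98 ± 0.67, adjusted p = 0.0021). Timp1 and Timp2, inhibitors of matrix metalloproteases, had log2 fold changes of -4.38 ± 0.39 and -2.63 ± 0.26 (adjusted p = 9.09e-05 and 0.000142). Ddr2, a collagen receptor, was not called, with 110, 547 and 6 reads in C1483Y and 2785, 9249 and 2463 in WT (log2 fold change -2.09 ± 0.94, adjusted p = 0.15). Lum, Mfap5, Fap, Eng, Tcf21 and Mmp3 had no read in any C1483Y library, and Tcf21 had none in WT either. Without C1483Y replicate 2, 43 of 50 tested genes of this list were lower and none higher, a check added after seeing the data.

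Neuronal genes appeared in the C1483Y footprints, although not as a complete programme. Of 34 listed genes 19 were tested, of which 10 were higher, 1 lower and 8 not called, with a median log2 fold change of 6.78. With genes at 0 to 3 reads in one group set at their bound, that median was 7.62. Over all genes 8.1% were higher and 10.5% lower. The 10 higher genes include the markers Uchl1 and Ckb, which were chosen with their values known. A gene unread in WT passes the filter only through its C1483Y reads, so such genes had to differ, and these counts describe the list only. Tubb3, the neuronal beta-tubulin, had 1360, 1080 and 1300 CPM in C1483Y and 17.5, 16.1 and 20.3 CPM in WT (log2 fold change 6.12 ± 0.76, edgeR adjusted p = 0.000385). Tubb4a, another beta-tubulin of the nervous system, had 1369, 3130 and 1567 reads in C1483Y and 14, 114 and 3 in WT (log2 fold change 8.35 ± 0.85, adjusted p = 0.00017). Every C1483Y library was above every WT library in both.

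The neurofilament subunits, which form the axonal skeleton, were low but present. Nefl had 165, 64 and 354 reads in C1483Y and none in WT, at least 1030-fold higher with 3 reads over the WT group as the floor (edgeR adjusted p = 0.00249). Nefm had 219, 25 and 170 reads in C1483Y and 0, 1 and 0 in WT, a ratio of 2190 with a counting interval of 391 to 86600 (adjusted p = 0.0064). Kif1a, the motor of synaptic vesicle precursors, had 695, 643 and 806 reads in C1483Y and none in WT, at least 3780-fold higher (adjusted p = 0.000107). Eno2, the neuronal enolase, rose by 3.43 ± 0.54 on the log2 scale. Ina, the neurofilament partner alpha-internexin, was not called despite 247, 465 and 460 reads in C1483Y and 0, 2 and 134 in WT, where replicate 3 held nearly all of them (log2 fold change 4.73 ± 1.79, adjusted p = 0.0914).

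Other members of the neuronal list went against it. Dpysl3, a growth cone protein, fell, with 27.5, 101 and 62.4 CPM in C1483Y and 216, 279 and 193 CPM in WT (log2 fold change -1.85 ± 0.44, edgeR adjusted p = 0.0141). Map1b, a microtubule-associated protein, was not called (log2 fold change -1.27 ± 0.48, adjusted p = 0.0899). Rbfox3, Dcx and Stmn2, markers of neurons, had no read in either group.

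Markers of muscle rose in all 5 of the 12 listed genes that could be tested, with a median log2 fold change of 9.28. Over all genes 8.1% were higher. Ckm, unread in WT, passed the filter only through its C1483Y reads and could only come out higher. Des and Ttn, with few WT reads, were close to that, so the count describes the list only. Actc1, the cardiac actin, had 1750, 2980 and 1030 CPM in C1483Y and 0.833, 1.57 and 0.321 CPM in WT (log2 fold change 10.94 ± 1.34, edgeR adjusted p = 0.000361). Acta1, the skeletal muscle actin, had 1680, 1460 and 1020 CPM in C1483Y and 6.91, 48.7 and 10.8 CPM in WT (log2 fold change 5.96 ± 0.97, adjusted p = 0.00179). These levels far exceeded those of the other muscle genes. Ckm, the muscle creatine kinase, had 371, 15 and 411 reads in C1483Y and none in WT, at least 1400-fold higher (adjusted p = 0.00756). Des, the muscle intermediate filament desmin, had 201, 583 and 111 reads in C1483Y and 4, 1 and 0 in WT, and the giant sarcomere protein Ttn had 16, 128 and 149 reads in C1483Y and 2, 1 and 1 in WT. Both were called (adjusted p = 0.0177 and 0.03), with ranges that did not overlap.

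The actin genes were redistributed, a family examined after its values were seen. The 7 actin genes summed to 10300, 11900 and 8610 CPM in C1483Y and 17600, 27500 and 15900 CPM in WT. Actb, the cytoplasmic beta-actin, had 1720, 1730 and 2220 CPM in C1483Y and 10800, 15300 and 9960 CPM in WT (log2 fold change -2.67 ± 0.23, edgeR adjusted p = 9.09e-05). Actg1, the cytoplasmic gamma-actin, had 3190, 3490 and 3240 CPM in C1483Y and 5960, 8590 and 4700 CPM in WT (log2 fold change -0.96 ± 0.23, adjusted p = 0.0156). Both cytoplasmic actins thus fell while 4 others rose. Actg2, the enteric smooth muscle actin, had 606, 539 and 45.7 CPM in C1483Y and 6, 32.4 and 9.86 CPM in WT, and Actbl2, a beta-actin-like gene, had 457, 1270 and 435 CPM in C1483Y and 0.999, 11.4 and 3.53 CPM in WT. Together Acta1, Actc1, Actg2 and Actbl2 took 43.8%, 52.6% and 29.4% of actin CPM in C1483Y and 0.0837%, 0.342% and 0.154% in WT. Acta2, the smooth muscle actin that marks activated fibroblasts, overlapped between groups (850, 406 and 615 CPM in C1483Y, 805, 3550 and 1230 CPM in WT) and was not called (adjusted p = 0.0983). Actin genes have similar coding sequences, and how short reads were divided among them is uncertain.

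**Figure D2:**
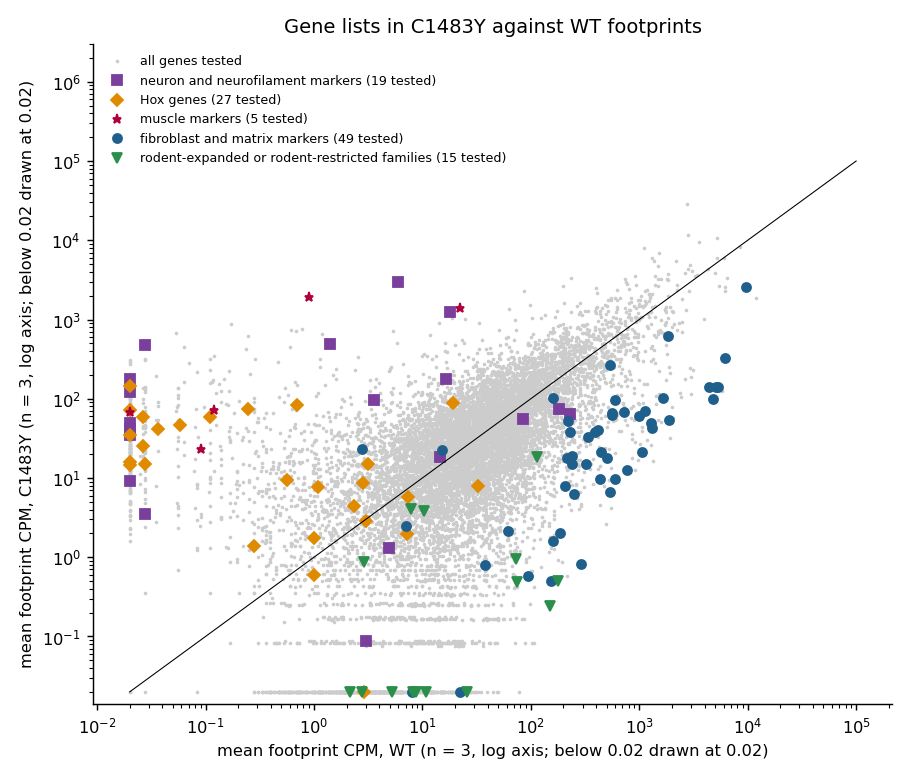
Mean footprint CPM in C1483Y (vertical) against WT (horizontal) for all 11133 genes tested, both on log axes with the line of equality, and members of 5 gene lists coloured. Fibroblast and matrix markers lie below the line except Fbln1 and Twist1, rodent-restricted families all lie below it, and neuronal, muscle and Hox genes spread to the left, where WT has few or no reads.

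Hox genes, which give body cells their position along the axis, differed in the members read. Of 39 Hox genes 27 were tested, of which 11 were higher in C1483Y, none lower and 16 not called, with a median log2 fold change of 4.04. Over all genes 8.1% were higher and 10.5% lower. Among the 27 tested, 10 had 0 to 3 reads in one group. A gene all but unread in WT passes the filter only through its C1483Y reads and could only come out higher. These counts and the split below therefore describe the list only. Split by paralog number after the values were seen, none of 10 tested genes numbered 1 to 6 was called higher and 11 of 17 tested genes numbered 7 to 13 were. The split is not complete among untested genes: Hoxb2 had 8, 197 and 0 reads in C1483Y, Hoxb6 had 199, 0 and 152, and neither had any in WT. Hoxd13, a gene of the distal limb and hindgut, had 406, 799 and 589 reads in C1483Y and none in WT, at least 3160-fold higher (edgeR adjusted p = 0.00017). Hoxa9 had 404, 228 and 237 reads in C1483Y and none in WT, at least 1530-fold higher (adjusted p = 0.00184). Hoxa10 had 444, 195 and 259 reads in C1483Y and 2, 23 and 0 in WT (log2 fold change 8.09 ± 1.79, adjusted p = 0.00936). Hoxa13 had 91, 536 and 113 reads in C1483Y and 0, 0 and 1 in WT, a ratio of 3910 with a counting interval of 700 to 155000 (adjusted p = 0.00415). In these genes all C1483Y libraries had reads and lay above WT. Hoxd11 had 216, 44 and 147 reads in C1483Y and none in WT, at least 717-fold higher (adjusted p = 0.00466). The remaining called genes were Hoxa11, Hoxb8 and Hoxc11 (adjusted p = 0.0216, 0.0261 and 0.032), of which Hoxa11 and Hoxc11 were named after their values were seen. Hoxc11 was called in 8 of 14 alternatives.

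In the other clusters Hoxb7 had 114, 220 and 180 reads in C1483Y and 1, 1 and 0 in WT, a ratio of 1360 with a counting interval of 374 to 11200 (edgeR adjusted p = 0.00396). Hoxb9 had 529, 211 and 266 reads in C1483Y and 6, 64 and 0 in WT (log2 fold change 6.85 ± 1.52, adjusted p = 0.0135). Hoxc9 had 96, 193 and 425 reads in C1483Y and 4, 0 and 0 in WT (log2 fold change 9.13 ± 2.57, adjusted p = 0.03). WT had its own Hox reads. Hoxa7 had 86, 1 and 5 reads in C1483Y and 440, 1500 and 299 in WT, with ranges that did not overlap, but it was not called (log2 fold change -2.03 ± 1.32, adjusted p = 0.321). Hoxa5 was also not called, with 43.3, 181 and 43 CPM in C1483Y and 13, 4.62 and 39.8 CPM in WT (adjusted p = 0.238).

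**Figure D3:**
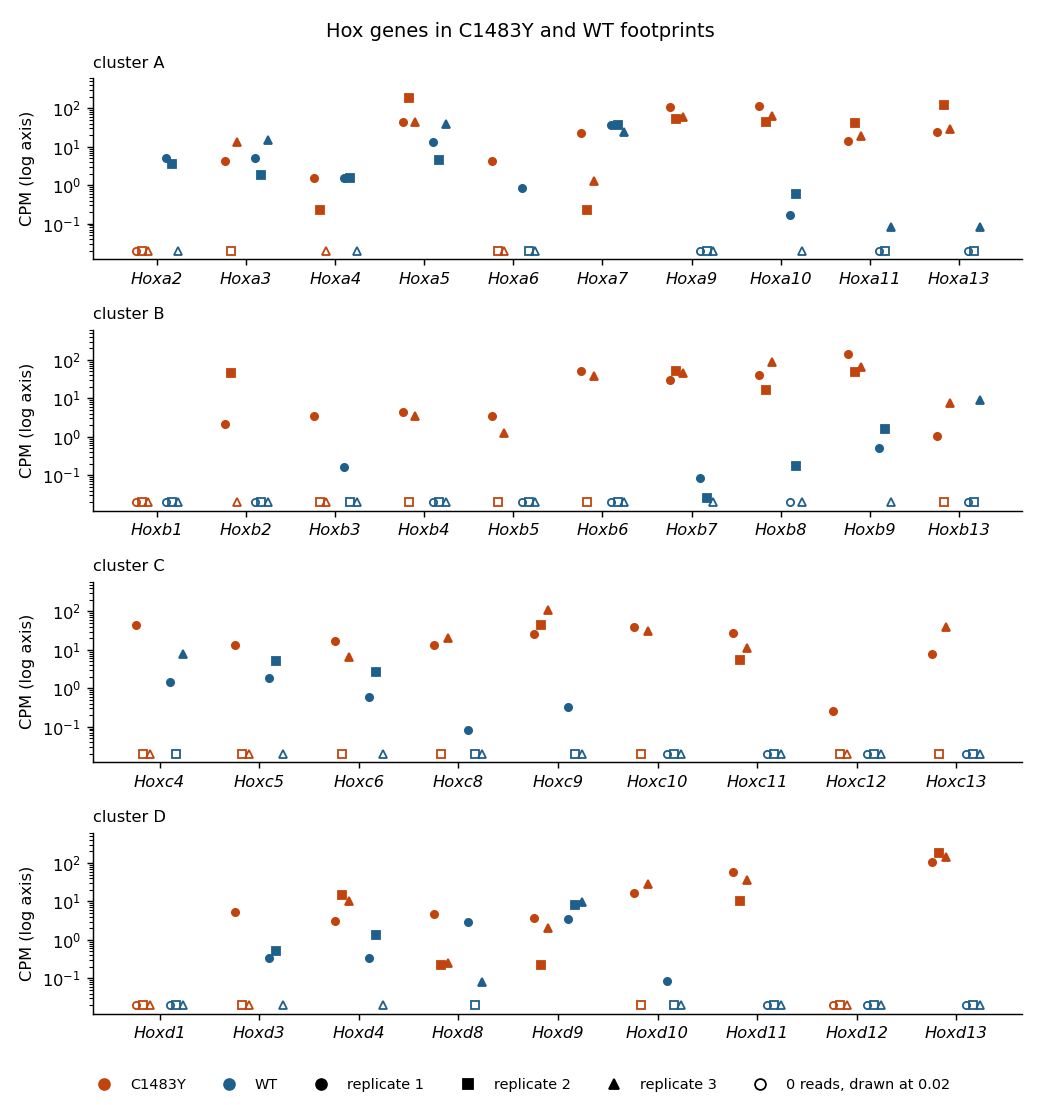
Footprint CPM (log axis) of Hox genes by cluster in the 3 C1483Y and 3 WT libraries, with open symbols for 0 reads. Hoxa9 to Hoxa13, Hoxb7 to Hoxb9 and Hoxd13 carry C1483Y reads where WT is at or near 0, whereas Hoxa3 and Hoxa5 are read in both groups.

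Kidney and epithelial markers were mixed. Of 33 kidney and nephron progenitor genes 15 were tested, of which 4 were higher, 2 lower and 9 not called, with a median log2 fold change of 0.96. Over all genes 8.1% were higher and 10.5% lower. The 4 higher genes were Irs4, a marker chosen with its value known, and Car2, Sall1 and Wt1. Car2, Sall1 and Wt1 were unread in WT and could only come out higher. Without C1483Y replicate 2, 8 of 19 tested genes of this list were higher and 3 lower, in a fit where 12.1% of all genes were higher and 14.5% lower. Car2, carbonic anhydrase 2, had 661, 1389 and 524 reads in C1483Y and none in WT, at least 4540-fold higher (edgeR adjusted p = 0.00399). Sall1, a zinc finger factor of the developing kidney, had 151, 322 and 22 reads in C1483Y and none in WT, at least 872-fold higher (adjusted p = 0.0102). Wt1, the Wilms tumour factor, named after its values were seen, had 78, 122 and 108 reads in C1483Y and none in WT (at least 543-fold higher, adjusted p = 0.0124). In the opposite direction Aqp1, a water channel of the proximal tubule, had 0, 1 and 11 reads in C1483Y and 1087, 5535 and 717 in WT (log2 fold change -6.58 ± 1.09, adjusted p = 0.00205). Osr1, a factor of the early kidney mesenchyme, fell by 4.86 ± 1.01 on the log2 scale (adjusted p = 0.00692).

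Of 19 epithelial genes 3 were tested. Ocln, a tight junction protein, had 614, 393 and 624 reads in C1483Y and 2, 0 and 0 in WT, a ratio of 4310 with a counting interval of 1190 to 35600 (edgeR adjusted p = 0.000442). Krt18, a keratin of simple epithelia, had 173, 584 and 123 reads in C1483Y and none in WT, at least 1550-fold higher (adjusted p = 0.00119). Its usual partner Krt8 had 55, 0 and 0 reads in C1483Y and none in WT. Defining epithelial genes were close to absent: Cdh1 had 2 reads and Epcam 1 read over all C1483Y libraries, and neither had any in WT. Cdh2, the cadherin of mesenchymal and neural cells, overlapped between groups and was not called (log2 fold change -0.38 ± 0.29, adjusted p = 0.398).

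Few reads came from the remaining lineages. Lin28b, an RNA-binding protein of fetal cells, had 100, 171 and 249 reads in C1483Y and 7, 5 and 0 in WT (log2 fold change 7.48 ± 1.76, edgeR adjusted p = 0.0172), while Pou5f1, a core gene of pluripotent cells, had none in either group. None of the 14 adrenal and chromaffin genes was tested, and 12 had no read in either group. Of 9 adipocyte genes 2 were tested, and Lpl, lipoprotein lipase, fell, with 3, 0 and 0 reads in C1483Y and 989, 3711 and 364 in WT (adjusted p = 0.00133). Of 12 leukocyte and endothelial genes 4 were tested, and Cd14, the endotoxin co-receptor, fell, with no read in C1483Y and 123, 444 and 46 in WT, at least 38.7-fold lower (adjusted p = 0.0164).

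Without C1483Y replicate 2, 3 of 5 tested pluripotency and embryonal genes were higher, against 1 of 3 with it, and 1 of 3 tested adipocyte genes was higher, against none of 2. In that fit 12.1% of all genes were higher, against 8.1% with the library, so the counts rose over all genes too.

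The Cdkn2a locus lies on mouse chromosome 4, at 89274473 to 89294619 (GRCm38). Beside it, Cdkn2b, which encodes the inhibitor p15INK4b and was named after its values were seen, had 724, 452 and 269 reads in C1483Y and none in WT, at least 2550-fold higher (edgeR adjusted p = 0.00109). Mtap, a neighbour that encodes a methionine salvage enzyme, was read in both groups and fell, with 60.8, 43.8 and 65.2 CPM in C1483Y and 298, 385 and 313 CPM in WT (log2 fold change -2.55 ± 0.32, adjusted p = 0.000379). Klhl9, a ubiquitin ligase adaptor farther along, was not called (log2 fold change -0.9 ± 0.35, adjusted p = 0.0999). Of 7 tested genes of this neighbourhood 2 were higher, 1 was lower and 4 were not called. Over all genes 8.1% were higher and 10.5% lower. The 2 higher genes were Cdkn2a, a marker chosen with its value known, and Cdkn2b. Cdkn2b was unread in WT, passed the filter only through its C1483Y reads and could only come out higher. Without C1483Y replicate 2, 2 genes were lower, in a fit where 14.5% of all genes were lower. These counts describe the list only. Torin1 footprints had no Cdkn2a read in any library.

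Of 20 tested targets of p53, whose activity p19ARF supports, 2 were higher, 3 lower and 15 not called, with a median log2 fold change of 0.25. These shares lie near the 8.1% higher and 10.5% lower over all genes, so the list as a whole did not stand out, and the called members are given as single genes. Cdkn1a, the cell cycle inhibitor p21, had 2, 0 and 8 reads in C1483Y and 952, 1630 and 609 in WT (log2 fold change -6.06 ± 1.26, edgeR adjusted p = 0.00707). Tnfrsf10b, a death receptor, had 0, 0 and 2 reads in C1483Y and 679, 2106 and 770 in WT (adjusted p = 0.000952). Mdm2, the p53 ubiquitin ligase, was called lower as well (log2 fold change -2.11 ± 0.66, adjusted p = 0.0443), but in only 7 of 14 alternative settings. Perp, a desmosome-associated p53 target, had 328, 115 and 238 reads in C1483Y and none in WT, at least 1200-fold higher (adjusted p = 0.00339), and Ccng1, a cyclin, rose by 1.9 ± 0.54 on the log2 scale (adjusted p = 0.0321, called in 8 of 14 alternatives). Cdkn1a, Tnfrsf10b, Perp and Ccng1 were named after their values were seen.

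Several genes of families that expanded in rodents, or that have no working human counterpart, were read in WT and had few or no reads in C1483Y. Of 42 such family genes in the files 10 had reads in C1483Y and 26 in WT, and none had reads only in C1483Y while 16 had them only in WT. Over all genes with any read these shares were 12.0% and 12.6%, and the WT libraries were deeper. Of the 15 tested 7 were lower and none higher, with a median log2 fold change of -8.46, or -4.43 with genes at 0 to 3 reads at their bound. Over all genes tested 10.5% were lower and 8.1% higher. Among the 15 tested, 8 had 0 to 3 reads in one group. A gene unread in C1483Y passes the filter only through its WT reads and could only come out lower, so these counts describe the list only. Rhox5, a reproductive homeobox gene, had 1, 1 and 4 reads in C1483Y and 2042, 7802 and 2111 in WT (log2 fold change -8.47 ± 0.78, edgeR adjusted p = 0.000107). Prl2c2, the growth factor proliferin, had 0, 1 and 2 reads in C1483Y and 1926, 7188 and 1369 in WT, which is lower by a ratio of 661 with a counting interval of 226 to 3210 (adjusted p = 0.000238). Ly6a, the surface antigen Sca-1, had no read in C1483Y and 371, 1592 and 75 in WT, at least 129-fold lower (adjusted p = 0.00706). No C1483Y library reached the WT range in these genes.

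Ifi202b, an interferon-inducible gene, had 11, 0 and 0 reads in C1483Y and 949, 3247 and 749 in WT (log2 fold change -6.28 ± 1.19, edgeR adjusted p = 0.00428). H60b, a ligand of the receptor NKG2D, had 0, 1 and 5 reads in C1483Y and 806, 3787 and 769 in WT (log2 fold change -7.22 ± 1.09, adjusted p = 0.0012). Ggta1, which makes the alpha-gal sugar and whose human counterpart is inactive, had 0, 0 and 2 reads in C1483Y and 512, 2121 and 391 in WT, lower by a ratio of 286 with a counting interval of 79.1 to 2360 (adjusted p = 0.000872). All of these fell. Ifi203 and Akr1c14, with no read in C1483Y, were at least 36.9-fold and 21.6-fold lower (adjusted p = 0.0235 and 0.0402), Akr1c14 being called in 6 of 14 alternatives. C1483Y replicate 2 departed from this in Nradd, a death domain gene, with 0, 1021 and 0 reads in C1483Y and 635, 2307 and 405 in WT, and also in Akr1b8, an aldo-keto reductase, with 3, 237 and 3 reads in C1483Y and 1400, 4385 and 1444 in WT. Neither gene was called (adjusted p = 0.824 and 0.173). Of 3 tested genes whose human counterpart is inactive 1 was lower, where 10.5% of all genes were lower. Without C1483Y replicate 2, 2 of them were lower, in a fit where 14.5% of all genes were lower. The listed genes with an inactive human counterpart summed to 0, 218 and 0.684 RPM (reads per 1000000 gene reads) in C1483Y and 101, 103 and 66.1 RPM in WT. The listed serpins overlapped as well, at 18.4, 0.214 and 9.58 RPM in C1483Y and 13.4, 16.8 and 0.0777 RPM in WT.

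Summed over 55 rodent-specific genes, the RPM were 24.4, 270 and 24.2 in C1483Y and 806, 812 and 612 in WT. The ratio of the means was 0.143, and 0.0327 without C1483Y replicate 2. Mouse MHC class I genes, which present peptides to T cells, were listed with B2m and the peptide loading genes Tap1, Tap2 and Tapbp. That list summed to 340, 353 and 334 RPM in C1483Y and 1070, 1120 and 915 RPM in WT, without overlap. B2m alone held most of the WT sum, so the sum does not show a fall of the class I genes themselves. The median log2 fold change of the tested genes of this list was -0.2. Of its 12 tested genes 1 was higher, 1 lower and 10 not called. These shares lie near the 8.1% higher and 10.5% lower over all genes, so the called members are given as single genes. Without C1483Y replicate 2, 2 of the 12 were higher, in a fit where 12.1% of all genes were higher. B2m, the shared light chain, had 4.19, 204 and 18.5 CPM in C1483Y and 855, 952 and 715 CPM in WT (log2 fold change -3.47 ± 1, edgeR adjusted p = 0.0327, called in 8 of 13 alternatives). H2-T24, named after its values were seen, had 137, 107 and 45 reads in C1483Y and 1, 0 and 0 in WT (adjusted p = 0.0176).

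Pseudogenes and duplicate copies of genes held more of the reads in C1483Y. Many arose when an mRNA was copied back into the genome, so their sequence resembles that of the parent gene. Of 358 genes in the files that RefSeq classes as pseudogenes 77 were tested, and 31 of these were higher in C1483Y (40.3%) and 3 lower (3.9%). Among protein-coding genes 7.92% were higher and 10.6% lower, and among long noncoding RNAs 3.2% were higher and 9.6% lower. Pseudogenes took 8030, 8670 and 7680 RPM in C1483Y and 818, 1130 and 710 in WT. The 3 C1483Y libraries lay close together and far above WT, with a ratio of means of 9.18. As pseudogene reads had led to this comparison, these values are a description with no test. Torin1 libraries had 804, 1470 and 986. Erdr1, which RefSeq classes here and which was named after its values were seen, ran the other way, at 4.72, 0.912 and 17.5 CPM in C1483Y and 239, 533 and 159 CPM in WT. Without it the ratio of means was 13.8.

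Gm13498 had 2948, 3121 and 2709 reads in C1483Y and 12, 10 and 10 in WT (log2 fold change 10.13 ± 1.09). Gm6682 had 3800, 4102 and 4802 reads in C1483Y and 262, 238 and 352 in WT (log2 fold change 5.81 ± 0.56). 4930448K20Rik had 998, 2121 and 2138 reads in C1483Y and 5, 5 and 2 in WT (log2 fold change 10.92 ± 0.73). All C1483Y libraries were high in these pseudogenes. Gm12504, which RefSeq names as a Ptma pseudogene, was uneven, with 5968, 55 and 2812 reads in C1483Y and 4, 41 and 12 in WT. In Gm6498 and 3000002C10Rik, by contrast, replicate 2 was the highest C1483Y library, at 1210 and 2160 CPM.

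Functional copies of genes, many of them active mainly in the testis, were also read. Of 33 listed pairs of a copy and its parent 30 were in the files, and in 26 the copy had at least 100 reads over the 6 libraries. Among these 26 copies 17 were higher, none lower and 9 not called, while 7 parents were lower and 5 higher. Of the 26 copies 10 had 0 to 3 reads in WT, so they met the minimum only through their C1483Y reads and had to come out higher. The count is therefore no support for a direction. Several copies share a parent, so the parents are not all distinct. Rpl10l, the copy of the ribosomal protein gene Rpl10, had 2666, 5409 and 2953 reads in C1483Y and 2, 1 and 4 in WT (log2 fold change 12.63 ± 1.29, edgeR adjusted p = 0.00017). Its share of the pair's reads was 28.3%, 31.4% and 29.3% in C1483Y and 0.0133%, 0.00178% and 0.03% in WT. D1Pas1, the copy of the RNA helicase gene Ddx3x, took 29.1%, 30.1% and 32.7% of its pair in C1483Y and 0%, 0.0054% and 0% in WT. The share was nearly the same in each C1483Y library for both pairs. Neither parent was called (adjusted p = 0.0715 for Rpl10 and 0.232 for Ddx3x).

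Glycolytic pairs gave smaller and less even shares. Pgk2, the testis phosphoglycerate kinase, took 2.85%, 12% and 0.558% of its pair with Pgk1 in C1483Y and none in WT. Gapdhs, the sperm glyceraldehyde phosphate dehydrogenase, took 14.7%, 3.24% and 21.1% in C1483Y and 0.0898%, 0.0105% and 0.0313% in WT. Ldhc, the testis lactate dehydrogenase, took 2.93%, 7.33% and 1.18% in C1483Y and none in WT. The 3 copies rose (edgeR adjusted p = 0.01, 0.00629 and 0.00934), and the parents Pgk1, Gapdh and Ldha fell, with log2 fold changes of -1.36 ± 0.21, -1.59 ± 0.3 and -1.41 ± 0.22. Pgam2, the muscle phosphoglycerate mutase, had 50, 574 and 102 reads in C1483Y and none in WT, at least 1280-fold higher (adjusted p = 0.00276). G6pd2, the copy of the X-linked glucose-6-phosphate dehydrogenase gene, took most of its pair in 2 libraries, at 72.5%, 44.9% and 66.2% in C1483Y and 0.199%, 0% and 0% in WT. Its parent G6pdx fell (log2 fold change -1.39 ± 0.41, adjusted p = 0.0363, called in 7 of 14 alternatives).

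Other copies showed the same order. Hspa1l, a testis Hsp70 chaperone set against Hspa8, had 1430, 1365 and 581 reads in C1483Y and none in WT, at least 5950-fold higher (edgeR adjusted p = 0.000383). Pbp2, a copy of the kinase regulator Pebp1, had 300, 521 and 911 reads in C1483Y and none in WT, at least 3050-fold higher (adjusted p = 0.00024). Rasl2-9, a copy of the nuclear transport GTPase Ran, had 1081, 718 and 1714 reads in C1483Y and 9, 3 and 7 in WT (log2 fold change 9.41 ± 1.23, adjusted p = 0.000521). Prps1l1, the testis phosphoribosyl pyrophosphate synthetase, had 198, 128 and 226 reads in C1483Y and none in WT, and Pdha2, the testis pyruvate dehydrogenase subunit, had 104, 25 and 101 in C1483Y and none in WT. They were at least 973-fold and 405-fold higher (adjusted p = 0.00203 and 0.0225), Pdha2 being called in 8 of 14 alternatives. Rpl39l, a ribosomal protein copy read in both groups, took 39.5%, 41% and 29.1% of its pair in C1483Y and 9.25%, 7.25% and 7.21% in WT. Pebp1 and Ran themselves were not called (adjusted p = 0.658 and 0.852). The direction was not uniform over the list. In 4 of 25 pairs with a share in every library the copy's share was below WT in all C1483Y libraries, among them Cstf2t, a copy of a polyadenylation factor gene, with 31.4%, 42.7% and 25.7% in C1483Y and 50.2%, 61.8% and 72.8% in WT. Rbmxl1, a copy of the splicing regulator gene Rbmx, had 32.6%, 67.9% and 23.6% in C1483Y and 78.3%, 76.5% and 90.5% in WT, while Rbmx itself rose (log2 fold change 3.2 ± 0.58, adjusted p = 0.00333). Copies and parents share long stretches of sequence, and the division of short reads between them is uncertain.

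**Figure D4:**
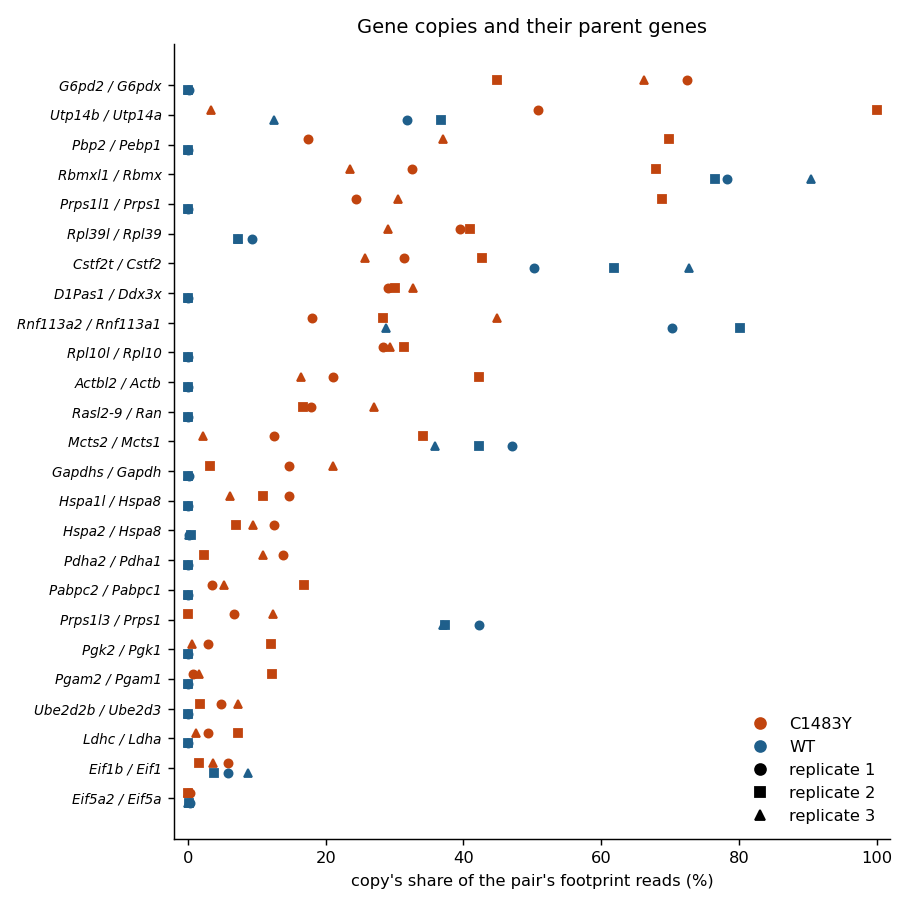
The copy's share of the footprint reads of each pair, in percent, for 25 pairs of copy and parent in the 3 C1483Y and 3 WT libraries, one symbol per library. In 17 pairs every C1483Y library is above every WT library, in 4 every one is below and in 4 the groups overlap.

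Summed over 32 copies, the RPM were 3110, 4650 and 3090 in C1483Y and 451, 375 and 478 in WT. The ratio of means was 8.31. The sums of pseudogenes, copies and rodent-specific genes, and the reads outside genes, each separated the groups without overlap. Pseudogene reads had led to this comparison, and the copies and rodent-specific genes were listed with earlier results of these data known. The separation of these sums is therefore a description with no test.

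**Figure D5:**
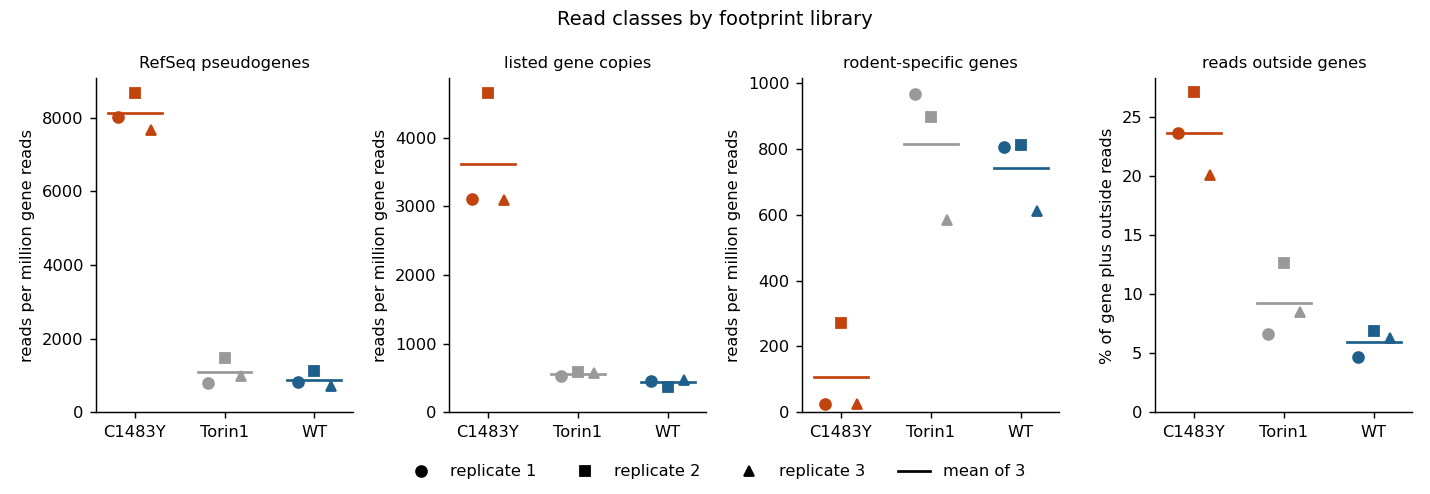
RPM on RefSeq pseudogenes, listed gene copies and rodent-specific genes, and the percentage of reads outside genes, in each C1483Y, Torin1 and WT footprint library, with bars for the mean of 3. C1483Y is above WT in pseudogenes, copies and reads outside genes and below it in rodent-specific genes.

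Genes of the Y chromosome with a partner on the X rose in part. Of 6 tested 4 were higher and none lower, where 8.1% of all genes were higher and 10.5% lower. Uba1y, a ubiquitin-activating enzyme gene, had 1068, 2351 and 518 reads in C1483Y and 1, 0 and 0 in WT, a ratio of 20800 with a counting interval of 3730 to 822000 (edgeR adjusted p = 0.0012). Usp9y, a deubiquitinase gene, had 249, 465 and 392 reads in C1483Y and 1, 1 and 0 in WT (adjusted p = 0.00031). Both were all but unread in WT, so they passed the filter only through their C1483Y reads and could only come out higher. The count therefore describes the list only. Ddx3y, an RNA helicase gene, was read in both groups, at 106, 299 and 60.7 CPM in C1483Y and 38.1, 38.4 and 28.4 CPM in WT (log2 fold change 2.15 ± 0.62, adjusted p = 0.0334, called in 8 of 14 alternatives), as was the translation factor gene Eif2s3y (log2 fold change 4.35 ± 1.19, adjusted p = 0.026). Xist, the RNA that silences an X chromosome, had 6 reads over all C1483Y libraries and none in WT.

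The most abundant genes also differed. Among the 12 higher genes with the highest C1483Y level were 3 RNAs that are not translated. Rnu11, the U11 RNA of the minor spliceosome, had 23000, 8260 and 54500 CPM in C1483Y and 1980, 1940 and 4340 CPM in WT (log2 fold change 3.38 ± 0.69, edgeR adjusted p = 0.00633). Rpph1, the RNA of ribonuclease P, rose by 2.83 ± 0.44 and Rn45s, the ribosomal RNA precursor, by 2.21 ± 0.58 on the log2 scale. Of the protein-coding genes, Eif4a1, the helicase that unwinds mRNA for initiation, had 12300, 9850 and 10200 CPM in C1483Y and 5730, 5320 and 4470 CPM in WT (log2 fold change 1.06 ± 0.18, adjusted p = 0.00261). Hnrnpa2b1, an RNA-binding protein, had 4840, 4340 and 5050 CPM in C1483Y and 1600, 1460 and 1430 CPM in WT (log2 fold change 1.66 ± 0.19, adjusted p = 0.000238). Replicates lay close together in both.

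Serbp1, an mRNA-binding protein, rose by 1.96 ± 0.25 on the log2 scale and Pfn1, the actin-binding profilin, by 1.4 ± 0.29. Eif5a, a translation elongation factor, rose by 1.33 ± 0.24 and Slc25a5, the mitochondrial ADP/ATP carrier, by 1.32 ± 0.21. Rps4x, a protein of the small ribosomal subunit, rose by 1.04 ± 0.31. The 12 lower genes with the highest WT level included, beside the actins, Vim and matrix genes, the chaperones Hsp90ab1 and Hspa8 and the pyruvate kinase gene Pkm (log2 fold changes -1.26 ± 0.2, -1.42 ± 0.21 and -1.06 ± 0.19). Lgals1, a galectin secreted by mesenchymal cells, had 48.2, 46.7 and 285 CPM in C1483Y and 6050, 4860 and 6460 CPM in WT (log2 fold change -5.51 ± 0.69, edgeR adjusted p = 0.000383).

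The edited gene itself was read more in C1483Y. Mtor had 200, 315 and 174 CPM in C1483Y and 35.4, 58.1 and 16.8 CPM in WT, without overlap (log2 fold change 2.64 ± 0.51, edgeR adjusted p = 0.00494). Gene counts do not show the base at the edited position, so they do not check the genotype label. Of 11 tested subunits of the mTOR complexes Mtor was the only one called, and their median log2 fold change was -0.26. Over all genes 8.1% were higher and 10.5% lower, with a median of -0.24. The list as a whole therefore did not stand out, and Mtor is given as a single gene. Without C1483Y replicate 2, 1 subunit was also lower, in a fit where 14.5% of all genes were lower. Adk, adenosine kinase, which recycles adenosine, had 40.4, 50.4 and 44.5 CPM in C1483Y and 157, 157 and 153 CPM in WT (log2 fold change -1.79 ± 0.34, adjusted p = 0.00442).

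The mRNA libraries gave the same genes unevenly and were read as values without a test. The mRNA library labelled C1483Y replicate 2 correlated at 0.999 with one labelled Torin1 replicate 3, whereas the other 35 pairs of mRNA libraries correlated at 0.22 to 0.444 (8559 genes). Even between WT mRNA libraries 175 to 1128 genes at 10 RPM or more in one had no read in another, so a zero there says little. Ckb had 7165, 0 and 6451 mRNA reads in C1483Y and 3, 692 and 2 in WT. Rpl10l had 5114, 0 and 6433 in C1483Y and 2, 3 and 1 in WT, and Hoxd13 had 2600, 0 and 791 in C1483Y and 0, 1 and 0 in WT. Col1a1 was at 13.1, 1310 and 12.6 RPM in C1483Y and 1190, 2160 and 1600 in WT. In these 4 genes C1483Y mRNA replicates 1 and 3 went with the C1483Y footprints and replicate 2 with WT. Other genes did not follow: Uchl1 had 1817, 0 and 0 mRNA reads in C1483Y and none in WT, Gm13498 had 27, 4 and 1 in C1483Y and 0, 3 and 0 in WT, Gm6498 had 1, 2 and 2 in C1483Y and 1, 2 and 9 in WT, and 4930448K20Rik had none in C1483Y and 1, 0 and 5 in WT. Irs4 differed, with 1489, 17199 and 6517 mRNA reads in C1483Y and 0, 9 and 2 in WT. Cdkn2a had no read in any mRNA library of any group.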

How the data were processed

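Footprint and mRNA libraries were made by nuclease footprinting or heat fragmentation with a small RNA kit, per the labels' protocols. The authors deposited raw read counts per mouse gene symbol. Bowtie 1.1.2, TopHat2 2.1.1, HTSeq and the build mm10 are named in the submitters' processing notes; no source used here gives a strand setting or an annotation release. Multiply aligned reads were summarised apart from genes and made up 42.9%, 47.5% and 37.8% of C1483Y alignments and 26.9%, 28.0% and 35.0% of WT alignments.

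Summary lines (5), date-named rows (27) and Tmem38b, which held 0.292% to 37.0% of gene reads in C1483Y and 0.0424% to 9.43% in WT, were left out. The 9 footprint libraries were fitted with edgeR 4.0.16 in R 4.3.3 (TMM, filterByExpr, quasi-likelihood test, Benjamini-Hochberg over 11133 genes, threshold 0.05; median biological coefficient of variation 0.901) and tested on simulated data. DESeq2 1.42.0, limma 3.58.1, other scalings, filters, sample sets and a replicate block were alternatives. CPM are TMM-scaled; RPM of summed classes are not. Intervals and floors (3 reads over a group) cover counting error only. Names, classes and coordinates come from RefSeq GRCm38.p6.

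The comparison, its markers and all gene lists were chosen with earlier results of these data known. Genes were named by a rule: among called genes without overlap the 12 highest in each direction, the 6 most read pseudogenes, up to 5 genes per list role by reads, all markers, and every pair with at least 100 reads on the copy. Genes outside it are said to be named after their values were seen, as is Actg2 among the actins. Some genes that the rule gives are not reported here. Same-numbered C1483Y and WT libraries deviated together at correlations of 0.06, 0.03 and 0.03, so no pairing by number showed across genes. Some single genes did follow the number. In each footprint group replicate 2 had the lowest Tmem38b share, at 0.292% in C1483Y and 0.0424% in WT. It also had the highest Rn45s level, at 9660 CPM in C1483Y and 1970 CPM in WT. Whether same-numbered libraries shared a batch was not tested. No 2 libraries of a group agreed within sampling noise (chi-square per degree of freedom at least 49.8).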

Additional observations from a re-analysis of the deposited data

Results flagged for a closer look

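Reads of marker genes of the C1483Y footprints also occurred in libraries outside the comparison, above the level in the WT libraries of the same assay. Among footprints, Torin1 replicate 3 had 119 Uchl1 reads, where WT footprints had 1, 0 and 0. Among mRNA libraries, Irs4 had 1489, 17199 and 6517 reads in C1483Y replicates 1, 2 and 3 and 16208 reads in Torin1 replicate 3, where WT had 0, 9 and 2. As depths differed, the RPM were 337, 407 and 1140 in C1483Y, 423 in Torin1 replicate 3 and 0, 0.0954 and 0.0355 in WT. The mRNA libraries C1483Y replicate 2 and Torin1 replicate 3 correlated at 0.999, so their values cannot be taken as separate occurrences. Uchl1 had 1817 mRNA reads in C1483Y replicate 1, where WT had none. Ckb had 7165 and 6451 mRNA reads in C1483Y replicates 1 and 3, where WT had 3, 692 and 2.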

How the results depend on the processing

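The count of called genes ran from 1156 to 3174 when single libraries were left out (453 to 1446 higher and 703 to 1728 lower), and the cause was not tested. It was 3316 with DESeq2 (1367 higher, 1949 lower) and 1577 in the C1483Y and WT libraries alone (862 higher, 715 lower, so 54.7% of calls were higher against 43.5%). With the replicate number as a block, 1627 genes were called, 1572 of them among the 2074. Other scalings, limma-voom, no filter and keeping Tmem38b gave 2053 to 2442 calls. Genes read only in C1483Y or only in WT numbered 1011 and 556 at 1 CPM, 63 and 1 at 50 CPM, 494 and 442 with up to 10 reads allowed, and 170 in C1483Y with reads required in every library. Without Erdr1 the pseudogene ratio was 13.8. Leaving out libraries moved it within 8.36 to 10.6, the copy ratio within 7.12 to 8.91 and the rodent-specific ratio within 0.0327 to 0.198. With DESeq2 size factors the median of leukocyte and endothelial genes was -8.41 against -8.44. Of 126 called genes examined by name 93 kept their call in every alternative and none reversed. Calls were lost in at least 1 alternative for Adk, Rn45s, Rps4x, Actg1, Pdgfra, Tagln, Thbs1, 3000002C10Rik, Gm12504, Dpysl3, Wt1, Osr1, Lin28b, Des, Ttn, Cd14, Hoxa11, Hoxb8, Hoxb9, Hoxc9, Hoxc11, Ifi203, Akr1c14, B2m, H2-T24, Eif2s3y, Ddx3y, Mdm2, Ccng1, Pdha2, G6pdx, G6pd2 and Erdr1. Of these Rps4x, Pdgfra, Ttn and Hoxb8 were called in 9 of 14. Uncalled genes reversed as follows: Nradd (0.7) was -4.97 with limma-voom, -2.62 with the block and -12.68 to 1.29 with single libraries left out, lowest without C1483Y replicate 2. Pebp1 (-0.43) ran from -0.79 to 0.05, highest without that library, and Ran (0.08) from -0.06, without C1483Y replicate 1, to 0.25. At 4133742 to 4673800 gene reads per C1483Y library, losses of weakly read genes were not detectable.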
